A study of Homo sapiens with 11 samples.

Results

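The transcription factors PAX2, PAX8, LHX1, EMX2, WT1 and HNF4A, which build or mark the kidney lineage, were followed in sunitinib-resistant renal cancer cells. They were chosen by symbol, and all 6 were listed among the 26485 gene symbols counted. The cells were Caki-1-SR, a subline of Caki-1, a clear cell renal cell carcinoma (ccRCC) line established from a skin metastasis, made resistant by growth in 1 µM sunitinib, a tyrosine kinase inhibitor. The study names the sequenced cells clone 1, 1 of several resistant clones, so the values describe that clone. ODC cells received Rapta-C (a ruthenium compound) at 2 µM, erlotinib (an EGFR inhibitor) at 1 µM, metformin (an anti-diabetic) at 1 µM and parthenolide (an anti-inflammatory sesquiterpene lactone) at 5 µM, while CTRL cells did not receive the mix. Sunitinib at 1 µM was listed for every library, CTRL and ODC alike, so ODC cells had the mix on top of sunitinib. RNA was sequenced from 3 CTRL and 3 ODC libraries at 24 h, and from 2 CTRL and 3 ODC libraries at 2 h. Replicates are numbered here in the order of their records. Nothing in the labels says that replicates were separate cultures, so p-values measure the spread between libraries, which may be technical.

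In the embryo, the paired-box factors PAX2 and PAX8 and the LIM homeobox factor LHX1 specify the intermediate mesoderm and the nephric duct, and EMX2 is needed for the ureteric bud epithelium to drive nephron formation. WT1 acts in nephron progenitors and stays on in the podocytes of the adult glomerulus, and HNF4A is a nuclear receptor that drives proximal tubule maturation. Clear cell carcinoma arises from proximal tubule epithelium, and PAX8 is used in pathology as a marker of renal origin.

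PAX8 was abundant and LHX1 was detected in every library, whereas HNF4A had no count in any of the 11 libraries. WT1, EMX2 and PAX2 exceeded 3 counts in a single library, CTRL replicate 1 at 2 h. LHX1 was 2.74-fold lower in ODC than in CTRL at 24 h, but this difference did not pass the adjusted threshold, and no member passed the test of ODC against CTRL at 2 h. LHX1 was also 4.31-fold higher in CTRL at 24 h than in CTRL at 2 h, which did pass the test. So did 22.4% of the 13333 genes tested there, and the sample names put the 2 times in different months.

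The promoters of the member with the highest level and of the member with no count are shown because they are the extremes of the set. Each is the 250 bases before a transcription start in RefSeq (GRCh38.p14), which had an entry for 5 of the 6 members, LHX1 being the exception. The PAX8 window lies at chr2:113278922-113279171 on the minus strand, and the HNF4A window, before an internal start of that gene, at chr20:44400989-44401238 on the plus strand. Capitals mark CCAAT in PAX8, the box bound by NF-Y, and ATTAAC in HNF4A, an AT-rich motif. Both motifs were searched on either strand.
PAX8: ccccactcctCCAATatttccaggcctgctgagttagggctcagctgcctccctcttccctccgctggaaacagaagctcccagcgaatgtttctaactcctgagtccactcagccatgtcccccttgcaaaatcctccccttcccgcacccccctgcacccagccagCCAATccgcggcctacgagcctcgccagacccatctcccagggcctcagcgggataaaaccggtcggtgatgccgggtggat
HNF4A: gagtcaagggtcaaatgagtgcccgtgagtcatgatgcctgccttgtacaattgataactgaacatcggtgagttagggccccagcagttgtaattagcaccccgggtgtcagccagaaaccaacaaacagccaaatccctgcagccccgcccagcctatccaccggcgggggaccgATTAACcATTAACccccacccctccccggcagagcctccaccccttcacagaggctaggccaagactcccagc
The PAX8 window held CCAAT at 2 places, a motif with at least 1 match in 32.0% of all 35116 promoter windows of this length. The HNF4A window held ATTAAC at 2 places that did not overlap, and 6.23% of all windows held it at least once. It was printed because of these matches, since the window before the first start of HNF4A, at chr20:44355449-44355698, held 0 matches of ATTAAC and 1 of CCAAT. GC content was 61.6% in the PAX8 window and 58% in the HNF4A window, beside a median of 58% over all windows. These matches are letters only, since binding was not measured.

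Total counts ranged from 17785229 to 20882856 per library at 24 h and from 25782895 to 31118349 at 2 h. A limit of 3 counts per library therefore stood at 0.144 to 0.169 CPM (counts per 1000000 counts of the library) at 24 h and at 0.0964 to 0.116 CPM at 2 h. These limits are not scaled by TMM and cover counting error only. All other CPM values are scaled by TMM over all 11 libraries. The sample names give different months for the 2 h and the 24 h libraries, without saying what the month dates. Any difference between times therefore cannot be told apart from the month. Of 12 epithelial tumor cell markers, 10 exceeded 3 counts in every library, but CA9, a defining marker of ccRCC, had 0 to 1 counts. CTRL replicate 1 at 2 h stood apart. It held 241 genes with at least 4 counts there and at most 1 in each other library, beside 0 to 11 such genes in any of the other 10 libraries.

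PAX8 (gene on chromosome 2, hg38 chr2:113215997-113278921, minus strand) had 9095, 12539 and 9008 counts in the 3 CTRL libraries at 24 h and 11541, 16490 and 11359 in the 3 ODC libraries. At 2 h it had 16898 and 15135 counts in CTRL and 19542, 17073 and 19409 in ODC. Replicate 2 was the highest of each group at 24 h, and CTRL and ODC overlapped at both times. Scaled for depth, PAX8 stood at 538 ± 114 CPM in CTRL (SD, n = 3) and 670 ± 189 CPM in ODC (SD, n = 3) at 24 h. At 2 h its level was 587 ± 79.0 CPM in CTRL (SD, n = 2) and 608 ± 55.0 CPM in ODC (SD, n = 3). The group means of PAX8 differed from each other by less than the SD of the ODC libraries at 24 h. Libraries of adjacent number at 24 h are not labelled as pairs. Taken as pairs, PAX8 was higher in ODC each time, at 567 against 444, 888 against 664 and 554 against 505 CPM. The share of all genes with a single direction over these pairs was not counted, and PAX8 did not pass the adjusted threshold with the pairs as a block.

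LHX1 (chr17:36936785-36944612, plus strand) had 578, 992 and 623 counts in CTRL and 210, 292 and 321 in ODC at 24 h. Every ODC library lay below every CTRL library, and CTRL replicate 2 was the highest of all. At 2 h LHX1 had 282 and 205 counts in CTRL and 242, 373 and 204 in ODC, with full overlap. In CPM, LHX1 stood at 38.6 ± 12.6 in CTRL (SD, n = 3) and 13.9 ± 3.10 in ODC (SD, n = 3) at 24 h. At 2 h the levels were 8.96 CPM in CTRL (mean of 7.19 and 10.7, n = 2) and 8.85 ± 2.76 CPM in ODC (SD, n = 3). The 3 CTRL libraries at 24 h therefore held the most LHX1 of the series, from 28.2 to 52.5 CPM, while the other 8 libraries lay between 6.93 and 15.7 CPM.

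**Figure D1:**
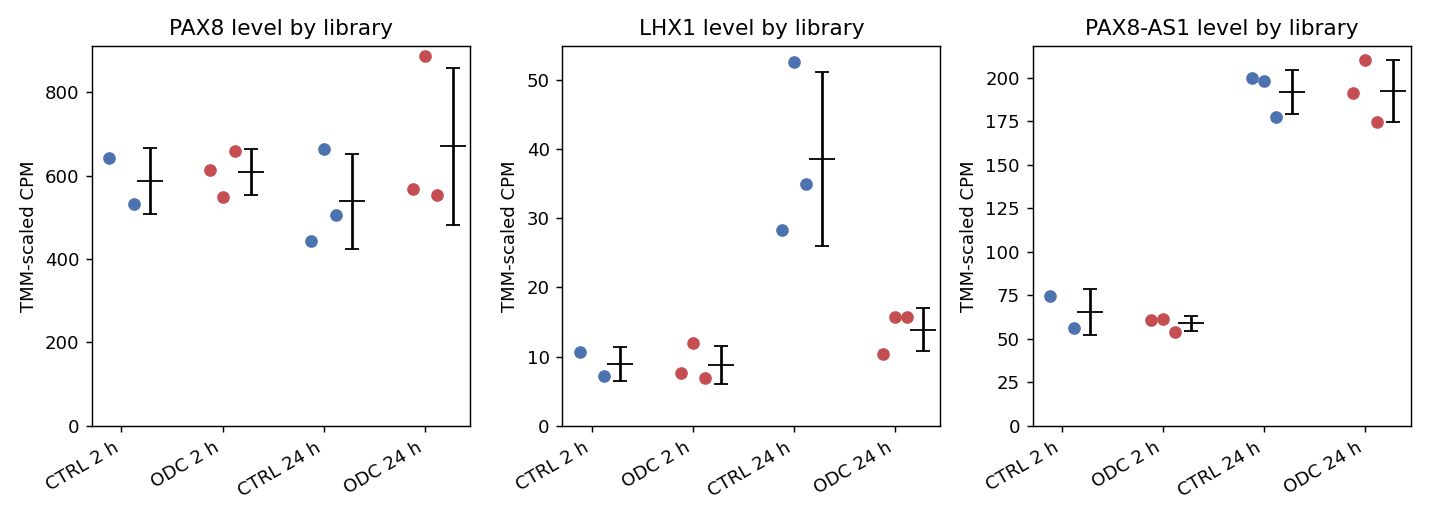
TMM-scaled CPM (linear axes from 0) of PAX8, LHX1 and the antisense gene PAX8-AS1 in each library, with CTRL in blue, ODC in red and the mean and SD of each group in black. PAX8 groups overlapped at both times, LHX1 was at 28.2 to 52.5 CPM in CTRL at 24 h against 10.3 to 15.7 CPM in ODC, and PAX8-AS1 separated by time point only.

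WT1 (chr11:32387775-32435564, minus strand) had 20 counts in CTRL replicate 1 at 2 h (95% exact Poisson interval 12.2 to 30.9, counting error only) and 0 in the other 10 libraries. EMX2 (chr10:117542445-117549546, plus strand) had 9 counts in that same library (interval 4.12 to 17.1), 1 in ODC replicate 2 at 2 h and 0 elsewhere. PAX2 (chr10:100735396-100829944, plus strand) had 4 counts there (interval 1.09 to 10.2), 1 in ODC replicate 3 at 2 h, 1 in ODC replicate 2 at 24 h and 0 elsewhere. In the other 10 libraries these 3 factors were at or under 1 count, below the limit of 3 counts. HNF4A (chr20:44355699-44432845, plus strand) had 0 counts in all 11 libraries, which allows up to 3 counts in each as a one-sided 95% limit. No fold change is given for these 4 genes, since neither time point had a library above the limit in ODC and the 24 h CTRL libraries had none either.

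The library that carried the WT1, EMX2 and PAX2 counts also carried genes of other cell types. All 9 fibroblast markers exceeded 3 counts there, among them 971 counts of COL1A2 and 1081 of COL3A1, both collagen chains. Of the 9, 2 did so in every other library, COL1A1 and PDGFRB, and 6 in at least 1 other library. Without COL1A1 and PDGFRB the fibroblast markers summed to 85.4 CPM there and to 0.159 to 1.09 CPM in the other 10 libraries. Endothelial markers above 3 counts numbered 4 of 7 there, with a sum of 1.29 CPM against 0.0488 to 0.561 CPM elsewhere. TEK went the other way, with 0 counts there and 1 to 7 in each other library, and EMCN was at 0 throughout. Leukocyte markers numbered 5 of 9 there and summed to 17.3 CPM against 6.06 to 17.1 CPM elsewhere, with CD3D and MS4A1 at 0 throughout. Of these 9, 4 also exceeded 3 counts in at least 1 other library. CD14 and CSF1R were highest in ODC replicate 3 at 2 h, at 72 and 42 counts against 41 and 31 in CTRL replicate 1. Epithelial EPCAM and KRT19 were also higher there, at 100 and 48 counts against 5 to 27 and 0 to 3. The part of these genes in the WT1, EMX2 and PAX2 counts was not tested. In bulk RNA, fewer cells of a type and less RNA per cell cannot be told apart.

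**Figure D2:**
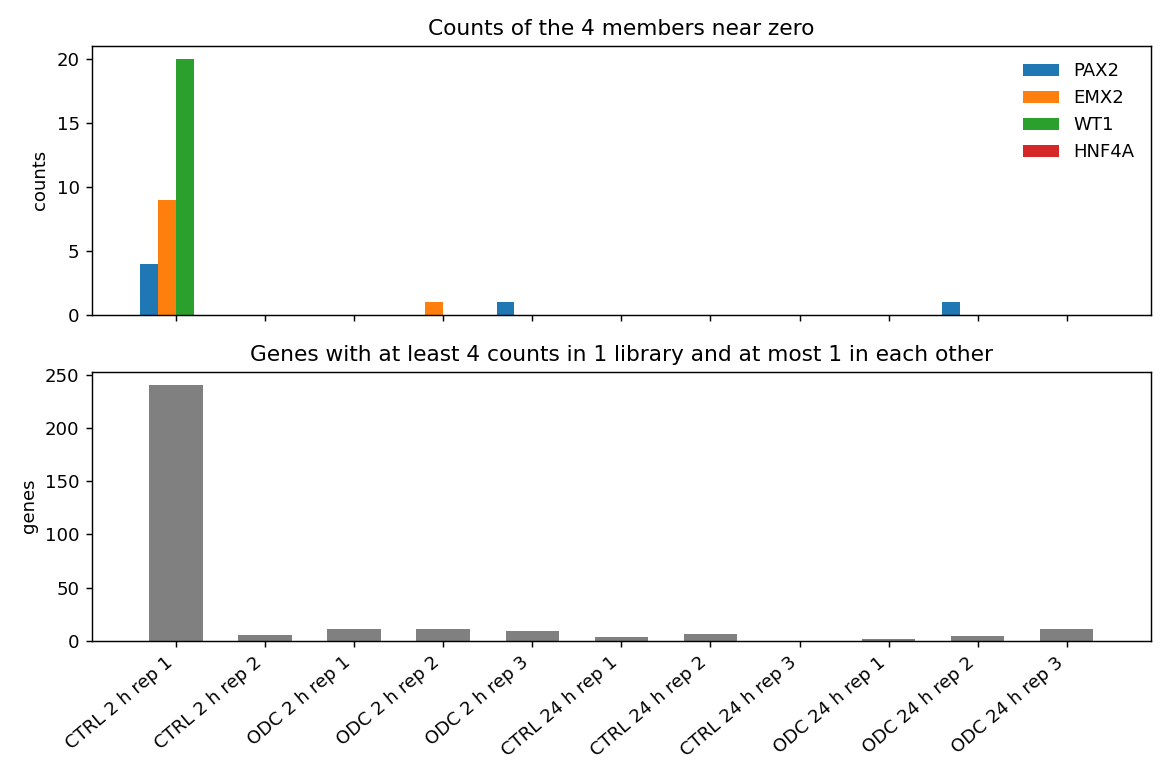
Upper bars give the raw counts of PAX2, EMX2, WT1 and HNF4A in each of the 11 libraries, and lower bars give the number of genes seen almost only in that library. CTRL replicate 1 at 2 h held 20 counts of WT1, 9 of EMX2 and 4 of PAX2 and also 241 such genes, against 0 to 11 elsewhere.

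Levels of different genes were compared per length, as CPM per kilobase of exon (RPKM, union of GENCODE exons). In CTRL at 24 h, PAX8 stood at 73.0 ± 15.4 RPKM (SD, n = 3), rank 487 of 12138 genes, and LHX1 at 7.85 ± 2.56 RPKM (SD, n = 3), rank 4784. In CTRL at 2 h, PAX8 stood at 79.6 ± 10.7 RPKM (SD, n = 2), rank 430, and LHX1 at 1.82 ± 0.51 RPKM (SD, n = 2), rank 8695. The median gene had 5.21 RPKM at 24 h and 5.12 RPKM at 2 h, so LHX1 lay above the median in one control set and below it in the other. The order was PAX8, then LHX1, then the remaining 4 factors, whose levels did not differ beyond their spread. Within libraries the PAX8 level per length exceeded that of LHX1 by 8.43 to 10.5 times in CTRL and by 23.6 to 37.6 times in ODC at 24 h. At 2 h this ratio ran from 39.9 to 49.2 in CTRL and from 30.5 to 63.4 in ODC.

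Whether ODC changed the members at 24 h was asked with edgeR's quasi-likelihood test over 12689 genes, of which 24 (0.189%) had a Benjamini-Hochberg adjusted p under 0.05. That number was 2 without CTRL replicate 1 and 70 without ODC replicate 3. PAX8 and LHX1 were the members with enough counts to be tested, and 0 of these 2 passed. At an unadjusted p under 0.05, passed by 12.2% of all genes, 1 of the 2 members remained, LHX1. The log2 fold change of LHX1 was -1.46 (SE 0.26, 95% interval -2.05 to -0.86, adjusted p = 0.0923), and it ranked 67 of 12689 by p. An unadjusted p under 0.05 with a level at least 2-fold lower was met by 0.575% of genes, LHX1 among them. ODC libraries that all lay below CTRL were found for 9.36% of genes, LHX1 again included. The log2 fold change of PAX8 was 0.33 (SE 0.22, interval -0.17 to 0.84, adjusted p = 0.600), which leaves a range from slightly lower to 1.79-fold higher.

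The direction of LHX1 held under every alternative tried, while its call depended on the test. DESeq2 (adjusted p = 8.34e-06) and edgeR's likelihood ratio test (adjusted p = 4.13e-05) each called 1 of the 2 members, LHX1. They called 2.98% and 3.16% of all genes, more than the 0.189% of the quasi-likelihood test. With libraries of adjacent number taken as pairs, a pairing that the labels do not state, 5.41% of genes were called, and LHX1 stood at -1.43 (adjusted p = 0.00544) and PAX8 at 0.32 (adjusted p = 0.0699). The pair block also called LHX1 only of the 2 members. LHX1 was called as well in the joint fit, which called 1.4% of genes, and when no gene with a count was filtered out, where 0.522% were called. Leaving out 1 library at a time gave log2 values of LHX1 from -1.65 to -1.17 with adjusted p from 0.0796 to 0.314. For PAX8, the log2 value was 0.07 without ODC replicate 2 and 0.51 without CTRL replicate 2.

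**Figure D3:**
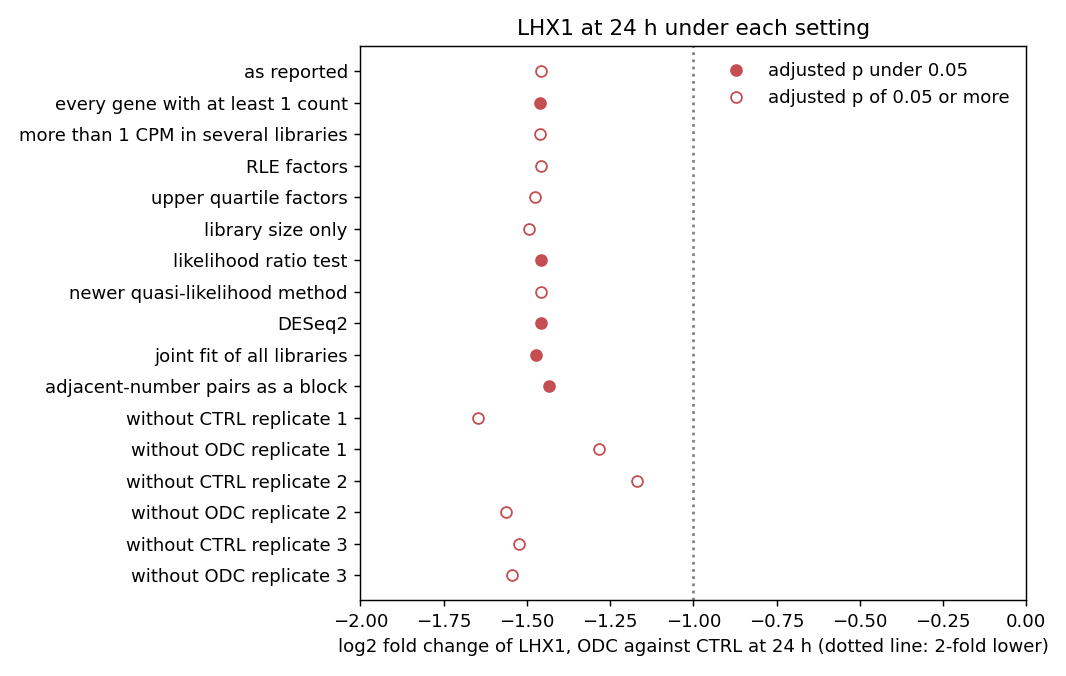
Each point is the log2 fold change of LHX1 in ODC against CTRL at 24 h under the setting named at the left, filled where the adjusted p was under 0.05. All 17 points lie left of the dotted line at a 2-fold lower level, from -1.65 to -1.17, and 5 are filled.

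At 2 h, edgeR's quasi-likelihood test called 0 of 13332 genes (0%), against 5 by the likelihood ratio test and 1 by DESeq2, none of them a member. An unadjusted p under 0.05 was found for 312 genes (2.34%) and for 0 of the 2 members tested. PAX8 had a log2 fold change of 0.05 (SE 0.12, interval -0.23 to 0.33) and LHX1 of -0.02 (SE 0.28, interval -0.66 to 0.62), both with an adjusted p of 1.00. Without CTRL replicate 1, the library that stood apart, the values were 0.20 for PAX8 and 0.31 for LHX1 (adjusted p = 0.999 for each), with the lone CTRL library assumed to vary like the ODC libraries. The interval of LHX1 at 2 h leaves out a change as large as that measured at 24 h.

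Whether the effect of ODC differed between 24 h and 2 h was tested in 1 fit of all 11 libraries. The adjusted threshold was passed by 2 of 13333 genes (0.015%) and by 0 of the 2 members in edgeR's quasi-likelihood test, nor by any member in DESeq2 or the likelihood ratio test. At an unadjusted p under 0.05, passed by 5.93% of genes, LHX1 was included, with a difference of -1.46 on the log2 scale (SE 0.42, interval -2.38 to -0.53, adjusted p = 0.584). PAX8 differed by 0.27 (SE 0.29, adjusted p = 0.998). The larger LHX1 effect at 24 h was therefore not established by the test of the difference itself.

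The control levels were compared in the same fit. LHX1 was higher in CTRL at 24 h than in CTRL at 2 h by 2.11 on the log2 scale (SE 0.33, interval 1.38 to 2.83, edgeR adjusted p = 0.00147). All 3 CTRL libraries at 24 h lay above both at 2 h, a separation whose share over all genes was not counted. Calls at an adjusted p under 0.05 were common here, with 22.4% of 13333 genes called and 10.3% called higher at 24 h. Without CTRL replicate 1 at 2 h these shares were 9.93% and 3.95%, and the LHX1 difference was 2.42 (adjusted p = 0.00977). In that fit the lone CTRL library at 2 h is assumed to vary like the other groups. PAX8 differed by -0.13 (SE 0.21, interval -0.59 to 0.34, adjusted p = 0.710). The CTRL set at 24 h is shared with the ODC comparison, so its high LHX1 enters both results.

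**Figure D4:**
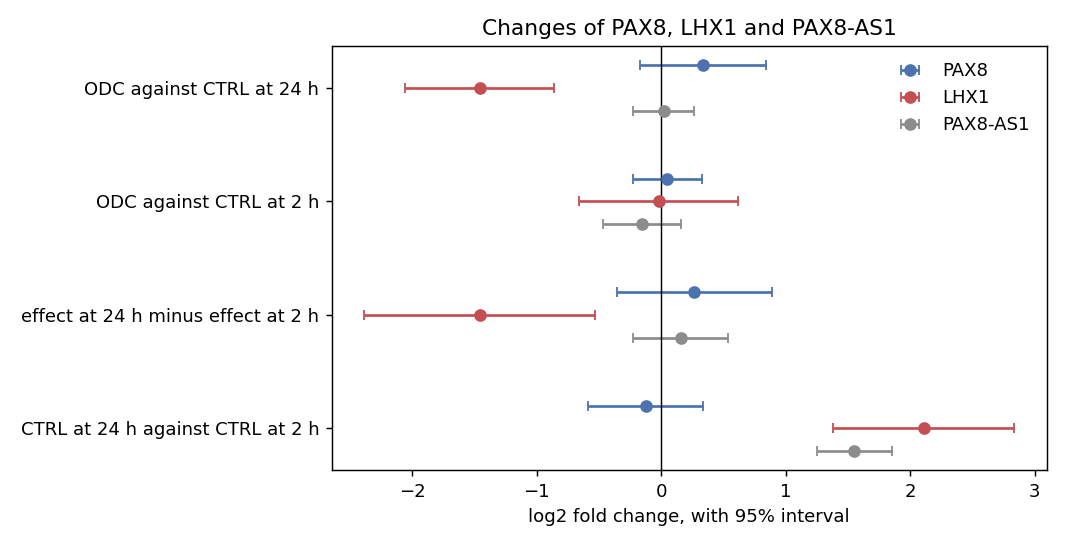
Log2 fold changes (points) with 95% intervals (bars) of PAX8, LHX1 and PAX8-AS1 in ODC against CTRL at each time, in the difference between these effects, and in CTRL at 24 h against CTRL at 2 h. LHX1 stood at -1.46 at 24 h, -0.02 at 2 h and 2.11 between the control sets, while PAX8 intervals included 0 throughout.

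PAX8 shares its locus with PAX8-AS1, a long noncoding RNA gene on the opposite strand (chr2:113211421-113276581). Of 7371 exon bases of PAX8, 1651 (22.4%) are also exon bases of PAX8-AS1. Whether the counting used strand was not given in the sources used here, so how reads there were assigned or left out is not known. PAX8-AS1 stood at 192 ± 12.5 CPM in CTRL and 192 ± 17.8 CPM in ODC at 24 h (SD, n = 3 each), and at 65.4 ± 13.0 CPM in CTRL (SD, n = 2) and 58.8 ± 4.08 CPM in ODC (SD, n = 3) at 2 h. It was 2.93-fold higher in CTRL at 24 h than at 2 h (edgeR adjusted p = 8.76e-05), in a comparison that called 22.4% of 13333 genes. ODC against CTRL at 24 h gave a log2 value of 0.02 for PAX8-AS1 (edgeR adjusted p = 0.963). The count ratio of PAX8 to PAX8-AS1 accordingly ran from 2.23 to 4.22 at 24 h and from 8.62 to 12.2 at 2 h. Of the other antisense genes at these loci, EMX2OS had 6 counts and WT1-AS 1 count, both in CTRL replicate 1 at 2 h alone, and HNF4A-AS1 had 0 counts in all libraries.

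Genes whose level moved most like each tested member across the 11 libraries were found from log2 CPM after centring each time point, as a description. For LHX1 these were GPR85 (r = 0.947, group means from 1.36 to 2.99 CPM), ANKRD13A (r = 0.945) and WNT7B (r = 0.928). WNT7B, a secreted WNT ligand, was at 120 CPM in CTRL and 59.9 CPM in ODC at 24 h (edgeR adjusted p = 0.107). For PAX8 the genes were ST3GAL2 (r = 0.965), EDIL3 (r = 0.961) and PRMT2 (r = 0.961). PAX8 and LHX1 themselves gave r = -0.17. All these points share libraries and depth.

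Among relatives of the members, HNF4G, the paralog of HNF4A, had 7.15 ± 0.17 CPM in CTRL at 24 h (SD, n = 3), with 127 to 150 counts per library. An unadjusted p under 0.05 at 24 h was found for 12.2% of all genes in edgeR's quasi-likelihood test. Of 8 HNF factors, 4 could be tested at 24 h, and FOXA1 was the 1 with an unadjusted p under 0.05 (log2 -0.73, adjusted p = 0.396). Of 7 further PAX genes, 3 could be tested, PAX3, PAX6 and PAX9, and PAX3 was the 1 with an unadjusted p under 0.05 (log2 -0.37, adjusted p = 0.330). Of 21 liver and gut genes known to depend on HNF4A, 3 exceeded 3 counts in all 5 CTRL libraries and 7 had 0 counts in all 11 libraries. HGD, an enzyme of tyrosine breakdown, was the highest of them, at 17.2 ± 5.06 CPM in CTRL at 24 h (SD, n = 3), followed by APOM, F12 and APOA1. At 24 h, 0 of the 4 that could be tested reached an unadjusted p under 0.05.

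Of 38 other regulators of kidney development, 18 were testable at 24 h, and 2 had an unadjusted p under 0.05, both lower in ODC. Over all genes that share was 12.2%, and 2 of 18 is not above it. The 2 genes were SOX9, a regulator of tubule repair (log2 -0.92, adjusted p = 0.286), and MECOM, a zinc finger factor of the distal nephron (log2 -0.38, adjusted p = 0.383). Of 19 kidney induction signals, 8 were testable at 24 h, with 2 higher and 3 lower at an unadjusted p under 0.05. GFRA1, the GDNF co-receptor, went from 569 ± 142 CPM in CTRL to 1123 ± 473 CPM in ODC (SD, n = 3 each, log2 1.00, adjusted p = 0.249), and NPNT, an integrin ligand that supports GDNF expression, had a log2 value of 0.74 (adjusted p = 0.199). The lower genes were BMP4, a mesenchymal signal, at -0.94, and the GDNF and FGF responsive factors ETV4 at -1.38 and ETV5 at -0.76, with adjusted p from 0.284 to 0.395. Per length, the regulators were led in CTRL by CITED2, a transcriptional co-activator, BICC1, an RNA-binding protein of the tubule, and FOXD1, a stromal progenitor factor, and the signals by GFRA1 and NPNT, with ETV5 and SLIT2 next. The median log2 fold change at 24 h was -0.06 over the tested regulators and -0.61 over the signals, beside 0.00089 over all genes.

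Markers of the segments that these factors help to form were mostly low. Of 36 proximal tubule markers, 12 exceeded 3 counts in all 5 CTRL libraries, led per length by HAVCR1, the injury marker KIM-1, at 196 ± 50.6 CPM in CTRL at 24 h (SD, n = 3). Of 23 distal nephron and collecting duct markers 7 did so, and of 9 podocyte markers 5, but NPHS1, the slit diaphragm gene that encodes nephrin, had 0 to 1 counts in every library. UGT2B7, a glucuronidation enzyme, was second among the proximal genes, CLDN16, KRT7, SLC12A3 and MUC1 led the distal list, and PODXL and SYNPO led the podocyte list. At 24 h, unadjusted p-values under 0.05 were found for 1 higher and 2 lower of 13 tested proximal genes (GGT1 0.75, AGXT2 -2.03 and ANPEP -0.69), for 2 lower of 6 distal genes (KRT7 -0.72 and CLDN16 -0.56) and for 1 higher of 6 podocyte genes (PTPRO 1.13, at 5 to 18 counts per library). No gene of these or the preceding lists passed the adjusted threshold in edgeR's quasi-likelihood test at either time. In that test 12.2% of all genes had an unadjusted p under 0.05 at 24 h. At 24 h, DESeq2 called 2 induction signals, GFRA1 and NPNT, and 1 distal marker, KRT7, and the likelihood ratio test called these 3 and AGXT2. The 2 tests called 2.98% and 3.16% of all genes. With adjacent pairs as a block, the fit that called 5.41% of all genes, MECOM, GGT1 and 3 distal markers, KRT7, CLDN16 and CDH16, were called. Median log2 values at 24 h were 0.06 for the proximal, -0.23 for the distal and 0.20 for the podocyte genes tested, and -0.37, -0.10 and 0.39 for the PAX relatives, HNF factors and HNF4A-dependent genes.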

How the data were processed

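RNA was extracted with the QIAGEN RNeasy Plus kit and libraries were made with the Illumina TruSeqHT stranded mRNA kit. The authors counted reads per gene with HTSeq 0.9.1 after STAR alignment to hg38, and deposited raw counts in 2 tables of 26485 symbols, without normalization. The STAR version is 2.5.3a in the study's methods and 2.7.0f in the submitters' processing notes. The annotation and the strand setting were not given in the sources used here.

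From these counts, each time point was tested with edgeR 4.0.16 (R 4.3.3, TMM, filterByExpr with a minimum count of 10, quasi-likelihood F test, two-sided) with Benjamini-Hochberg adjustment over all genes tested. The 24 h fit used 6 libraries and the 2 h fit 5. A joint fit of 11 libraries gave the difference of effects, the control comparison and all CPM values. DESeq2 1.42.0, other filters, other scalings, a likelihood ratio test, adjacent-number pairs and left-out libraries were alternatives. The test script was checked on simulated data. Gene positions and lengths came from GENCODE 44, matched by symbol for 22923 symbols.

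The members and the 13 other gene lists were chosen with earlier results of these data known. Genes named from a list were those with an adjusted p under 0.05 in either comparison, the 4 with the smallest unadjusted p at each time if under 0.05, and the 4 highest per length in CTRL (for markers of other cell types, summed levels and the genes a result rests on are given). For likeness, the 3 genes with the highest r were named. Depth was 17785229 to 31118349 counts per library. Some genes of the lists are not reported here.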

Additional observations from a re-analysis of the deposited data

How the results depend on the processing

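Called members at 24 h numbered 0 as reported and 1, LHX1, under 5 of 16 alternatives: every gene with at least 1 count (adjusted p = 0.0317), the likelihood ratio test, DESeq2, the joint fit (adjusted p = 0.0271) and adjacent-number pairs. These 5 fits called 0.522% to 5.41% of all genes, against 0.189% as reported, and the cause was not tested. The log2 fold change of LHX1 was negative in all 16, from -1.65 to -1.17. For the adjacent pairs, which the labels do not state, deviations from group means correlated at 0.17, 0.53 and 0.39. Every other possible pairing included a negative correlation, the lowest being -0.49. Whether the libraries were paired was not tested. At 2 h, and for the difference between times, 0 members were called under any of 14 and 19 alternatives, LHX1 ranging from -0.30 to 0.31 and from -1.77 to -1.17. With 1 library left out the 2 h values changed sign in 3 fits for LHX1 and in 2 for PAX8 (-0.074 to 0.20), and the control difference of PAX8 ran from -0.31 to 0.020. Between control sets LHX1 was called under all 19 (1.82 to 2.42). The number of members called there was 1 to 2 with 1 library left out, since without CTRL replicate 2 at 2 h WT1 was also called (adjusted p = 0.0373), a value that rests on CTRL replicate 1 alone. For the difference between times, DESeq2, the newer quasi-likelihood method and left-out libraries, and for the control sets every alternative, were chosen after seeing the data. By longest transcript length, levels in CTRL at 24 h and 2 h were 129.5 and 141.3 RPKM for PAX8 and 11.3 and 2.61 RPKM for LHX1. With 0 counts of HNF4A, the one-sided 95% limit of 3 counts stood at 0.0964 to 0.169 CPM, not scaled by TMM.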

Other observations

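Around the members, the epithelial keratins KRT18 and KRT8 had log2 fold changes of -0.71 and -0.62 in ODC against CTRL at 24 h (edgeR adjusted p = 0.128 and 0.202). DESeq2, which called 2.98% of all genes, called both. Of 9 epithelial tumor cell markers tested, 1 was higher and 3 were lower at an unadjusted p under 0.05, which 12.2% of all genes reached. Their median log2 value was -0.17. FOXA2, a forkhead factor of endoderm and of some epithelia, was at 1.68 CPM in CTRL at 2 h and 0.05 CPM in CTRL at 24 h. The 24 h level lies below the limit of 3 counts. Between the control sets 22.4% of 13333 genes were called, and time cannot be told apart from the month. At 2 h, EPCAM had a log2 fold change of -1.66, which was -0.15 without CTRL replicate 1, and COL1A2 had -6.62, which was 1.35 without that library.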
